A study of Mus musculus with 4 samples.

Results

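The long peaks described here are the ChIRP-seq peaks over 500 bp on chromosomes 1 to 19 of 4T1-TGL, a breast cancer cell line from the mouse. They number 480 of the 75404 peaks in the same area (0.637%) and of 77823 peaks in the whole list. The area leaves out the peaks with summits in a block of chromosome 11 between 101 and 106 Mb, where 537 of 1624 peaks (33.1%) are over 500 bp, and the single peak over the Malat1 gene itself. The members were chosen by their length, which is a readout of the same peak-calling run as every other value below. All values are therefore given as a description, with no test.

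ChIRP (chromatin isolation by RNA purification) recovers DNA with a chosen nuclear RNA, here the long noncoding RNA Malat1, by biotinylated antisense oligonucleotides. The labels give 4 libraries, each alone in its group and each of genotype WT and strain BALBC, grown in DMEM/F12: a Malat1 pull-down with the Even probe pool, one with the Odd pool, a LacZ pull-down and an input titled as the Even input. Reads were single, 76 nt long. The files hold 1 peak list, called with MACS 1.4.4 from 1 merged treatment against 1 input, so no value per library and no replicate error was analysed here. The sources used here do not name the pull-downs that the treatment joined. After duplicate removal the treatment held 851227 tags (the aligned units that the caller counts) and the input 50030325, which is 58.8 times as deep.

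Malat1 is an abundant RNA of nuclear speckles and is retained at chromatin near active genes. Ribosomal DNA is carried as long tandem arrays on several mouse chromosomes, and satellite repeats fill the regions around mouse centromeres. A reference assembly shows such arrays as a few copies or none, so reads from every copy pile up on the copies that are shown. In a pull-down and in its input alike, such collapsed places look deep. The input is therefore the readout by which a collapsed repeat can be recognised in a peak list.

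The deposited list does not give the input itself. It gives the fold enrichment, which is the caller's ratio of the summit height (the pileup of tags there) to a background read from the input around the peak, after scaling to the treatment. Where several windows of input gave different backgrounds, the caller used the largest. Dividing height by fold returns that background, and it is expressed here as the implied input, in multiples of the genome mean (0.0167 tags per fragment length of 53 bp). It cannot fall below 1 by construction. Fold and implied input are parts of one quotient, so a low fold beside a high implied input is not a separate observation.

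The sequence tables used here cover gene starts and microRNAs and none of the multi-copy loci. Among 31396 RefSeq promoter windows of GRCm38.p6, each of 300 bases, 5 of the long peaks (1.04%) touched one, against 0.732% of all peaks of the area. These 5 windows belong to Gm29387, Il1f9, Pnpt1, Ncoa5 and LOC108168800. Touching was counted by interval, and the shares are not corrected for the greater length of the long peaks (median 534 bp against 134 bp). The 250 bases before the gene start are shown for the pair with the largest overlap, since they are the closest these peaks come to a promoter. Capitals mark the bases inside the long peak, and both are printed 5′ to 3′ on the plus strand.
Gm29387 chr9:102559037-102559286: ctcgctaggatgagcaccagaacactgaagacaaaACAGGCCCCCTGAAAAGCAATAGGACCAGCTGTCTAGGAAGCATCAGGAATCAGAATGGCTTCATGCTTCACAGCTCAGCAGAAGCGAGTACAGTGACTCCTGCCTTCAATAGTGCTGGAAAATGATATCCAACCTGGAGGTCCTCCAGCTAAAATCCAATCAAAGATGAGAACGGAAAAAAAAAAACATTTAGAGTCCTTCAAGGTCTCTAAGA
Il1f9 chr2:24186226-24186475: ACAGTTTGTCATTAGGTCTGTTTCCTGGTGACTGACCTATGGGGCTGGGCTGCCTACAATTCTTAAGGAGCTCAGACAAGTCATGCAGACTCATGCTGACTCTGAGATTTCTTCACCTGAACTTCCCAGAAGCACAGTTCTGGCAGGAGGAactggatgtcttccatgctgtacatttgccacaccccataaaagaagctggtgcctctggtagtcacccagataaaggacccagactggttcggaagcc

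The peak at Gm29387, a predicted gene, covers 215 of these bases and runs on over the gene start. It spans positions 102559072 to 102559677 of chromosome 9 and holds 22 tags, with a fold of 118.59 and an implied input of 1.51. The peak at Il1f9, which encodes a cytokine of the interleukin family, spans positions 24185829 to 24186376 of chromosome 2 and ends 151 bases into the stretch shown. It holds 24 tags, with a fold of 202.57 and an implied input of 2.07. Both hold fewer tags than the median long peak, which has 54. The peaks at Pnpt1, Ncoa5 and LOC108168800 reach 46, 11 and 3 bases into their windows. No run of 25 bases in these 5 windows occurs in any other promoter window. At least 1 such run is shared by 14.3% of all windows, so 5 windows are too few to show a difference. GC content is 45.3% in the window of Gm29387 and 49.7% in that of Il1f9, where the median window has 53%. No long peak lay over a microRNA hairpin of the sequence table.

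The long peaks ran from 501 to 2531 bp with a median of 534 bp, so most were only just past the limit that selected them. They held 15 to 466 tags with a median of 54, where the 74924 shorter peaks of the area had a median length of 134 bp and a median of 4 tags, with a maximum of 120. Their tag density ranged from 0.0281 to 0.335 tags per bp with a median of 0.0967, and the median of the shorter peaks was 0.0368. Long peaks were thus denser as well as longer. In them 60 of 480 held at least 100 tags, and 10 of the shorter peaks did. At least 200 tags were found in 7 long peaks and in no shorter one. The median summit height was 13 tags (range 3 to 22) against 3 in the shorter peaks, and the median fold was 451 (range 10 to 1317) against 133. Together the long peaks covered 277 kb and held 30738 of the 851227 tags, or 3.61% (95% Wilson interval 3.57 to 3.65, counting error only). The number of tags followed length less closely here than elsewhere: Spearman's rho across peaks was 0.307 in the long peaks and 0.831 in the shorter ones. Peaks share the same library and depth, and the range of lengths was cut by the rule in both sets.

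The peak edges lie on a lattice of 25 bp, which bears on what the length limit selects. Divided by 25, the start positions of all 77823 peaks leave only 10 of 25 possible remainders (0 to 4 and 19 to 23), and the ends use 10 as well (1 to 5 and 20 to 24). In the long peaks, 402 of 480 starts (83.8%) fell in the run from 19 to 23, and 395 ends (82.3%) in the run from 1 to 5. The same runs held 76.9% of starts and 76.7% of ends over all peaks. Peak lengths therefore form a comb with teeth 25 bp apart. The limit of 500 bp falls inside a tooth that runs from 499 to 512 bp, near its lower edge. From 491 to 500 bp there were 12 peaks, with 15 to 86 tags (median 43), a median fold of 246 and a median implied input of 1.65. From 501 to 510 bp there were 143 peaks, with 17 to 133 tags (median 48), a median fold of 469 and a median implied input of 1.49. This part of a single tooth thus holds 143 of the 480 long peaks. The step of the lattice equals the tag size of 25 bp given by the file headers. The sources used here do not say how the lattice arose.

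**Figure D1:**
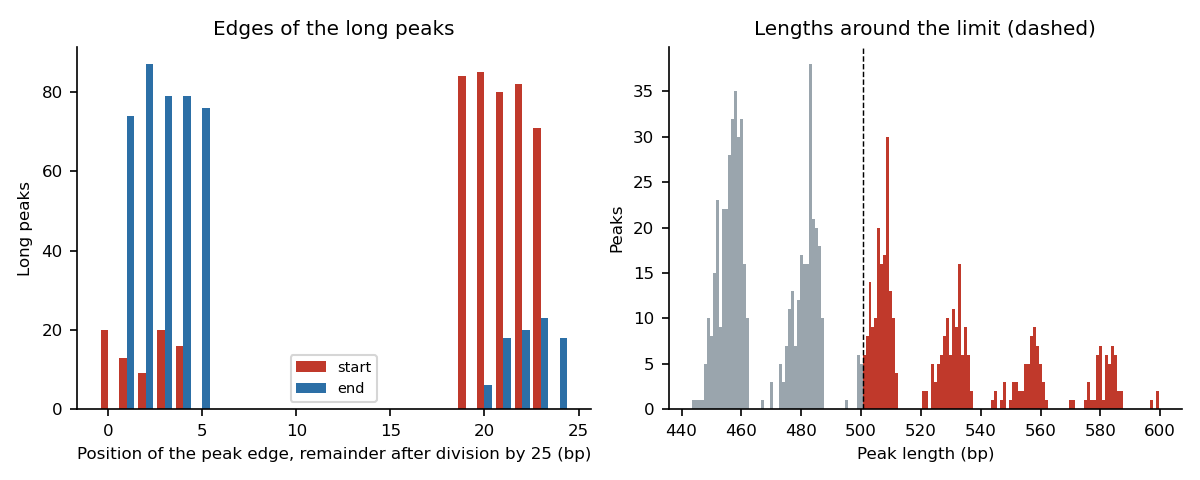
Left, number of long peaks (n = 480) by the remainder of their start (red) and end (blue) position after division by 25 bp; right, number of peaks of the area by length in bp, with shorter peaks in grey, long peaks in red and the 500 bp limit dashed. Starts and ends each use 10 of 25 remainders, and 143 peaks are 501 to 510 bp long.

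The lattice and the removal of duplicates set an upper bound on the counts. If the tags use the same 10 positions in each 25 bp as the peak edges do, and 1 tag is kept at each, a peak can hold at most 0.400 tags per bp. The densest long peak reached 83.8% of that bound, the median long peak 24.2% and the median shorter peak 9.19%. The Malat1 peak, which is no member, reached 96.4% at 0.386 tags per bp. Summit height stopped at 22 tags, a value shared by 103 peaks of the list. A height of at least 20 was found in 70 long peaks (14.6%) and in 60 shorter ones (0.0801%). With the height held at 22, the highest fold that a peak can show is 1317 at an implied input of 1, 65.8 at 20 and 18.8 at 70. The height limit thus bounds the fold that the deepest loci can show. Not all came near it: of 19 long peaks at an implied input of 20 or more, 9 had a height of 20 or more. The input was deduplicated as well. Its limit was reckoned otherwise, with 1 tag kept at every position on both strands and no lattice. The bounds of pull-down and input are therefore not comparable. The input limit is then 108 genome means, of which the highest long peak (71.8) reached 66.5%. An implied input is for this reason not a copy number.

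Most long peaks did not have a raised implied input, taken here as 2 or more. An implied input below 2 was found in 337 of 480 (70.2%), and their median fold was 567. At 2 or more there were 143 (29.8%), against a background of 13.8% of all peaks in the area. At 5 or more there were 36 (7.50%, background 0.603%), at 10 or more 25 (5.21%, background 0.183%) and at 20 or more 19 (3.96%, background 0.0822%). The median implied input was 1.57 in the long peaks and 1.4 in the shorter ones, so the sets differed mainly in the upper tail. A raised implied input thus marks a minority of the long peaks and not the set. Whether peaks below 2 lie in multi-copy sequence was not tested, because no repeat annotation was used and the aligner is not given. High inputs went with the longest peaks: all 10 peaks over 1000 bp had an implied input of at least 30.9. These 10 lie in only 4 places, so they are not separate cases. Of the 470 others 9 reached 20.

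The 19 long peaks at 20 or more lay in 8 loci, with 9 of the peaks at Sfi1, so peaks of the same locus weigh on the medians. The median length of the 19 was 1032 bp and their median tag count 148, with 30 to 466 tags each. Their median fold was 23.7, from 10 to 52.5, and its low level follows in part from the choice by implied input. The 6 peaks at 10 to 20 had a median fold of 106 and the 11 at 5 to 10 a median of 80.3, while the 107 at 2 to 5 had 266. Tags did not fall in the same order: the medians were 52 below 2, 56 at 2 to 5, 46 at 5 to 10 and 99 at 10 to 20. The 19 peaks covered only 20.8 kb and held 3715 of the 30738 tags of the long peaks (12.1%, 95% Wilson interval 11.7 to 12.5, counting error only). Of them 9 had a summit height of 20 or more, close to the highest in the list.

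**Figure D2:**
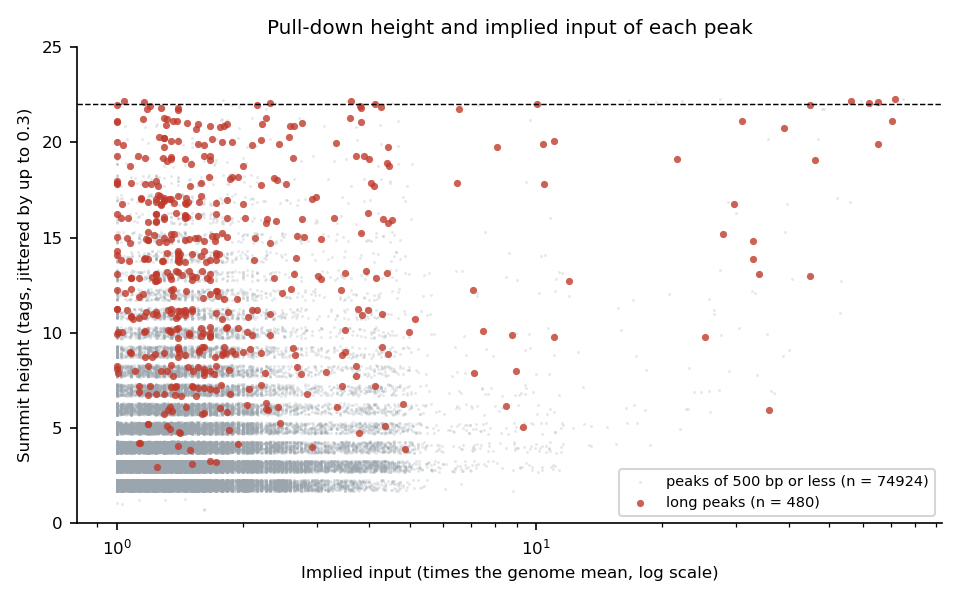
Summit height in tags (jittered by up to 0.3) against the implied input in multiples of the genome mean (log axis) for the 480 long peaks (red) and the 74924 shorter peaks (grey); the dashed line is the highest height, 22 tags. Of the long peaks 337 lie below an input of 2, and 22 of the 480 sit on the dashed line.

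The ribosomal DNA locus of chromosome 17 carried the peak with the most tags. It holds 3 long peaks between positions 39842995 and 39848877, at Rn18s-rs5, annotated as a pseudogene of the small-subunit ribosomal RNA, and AY036118, a long noncoding RNA gene. The first peak (39842995 to 39844930, 1936 bp) held 377 tags and ended before Rn18s-rs5. The second (39845019 to 39846705, 1687 bp) held 298 and only reached into Rn18s-rs5, which lies 1424 bp from the first peak. The last (39847470 to 39848877, 1408 bp) overlapped both genes and held 466. Their implied inputs were 70.4, 65.4 and 62.0 and their folds 17.84, 18.30 and 21.24, so the 3 differed little. The locus had no shorter peak within 10 kb, and its 3 peaks held 1141 tags in all. Counted by interval, 0.00530% of all peaks of the area overlapped a gene of the ribosomal RNA list, and 2 long peaks (0.417%) did. By summit, the ribosomal and satellite-flanking lists together had 9 long peaks in place of 11. The 9 are the peaks at Sfi1, so neither ribosomal peak had its summit in a listed ribosomal gene.

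A locus of chromosome 2 with no annotated gene had the highest implied input among the long peaks. It holds 2 long peaks, from 98662194 to 98662976 with 245 tags and from 98666194 to 98667380 with 398 tags. Their implied inputs were 71.8 and 65.3 and their folds 18.33 and 20.15. The nearest gene, Gm33780, lies 39623 bp from the first. Between them were 2 shorter peaks with 108 tags together and implied inputs of 35.6 and 48.0. The second long peak is the densest of all 480 at 0.335 tags per bp, so this locus was close to the ribosomal DNA in input and fold without an annotated ribosomal gene.

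Sfi1 carried the largest group of long peaks. The gene encodes a centrin-binding protein of the centrosome, and its place near the start of chromosome 11 is known for satellite-like and amplified sequence. It holds 9 long peaks between 3185746 and 3200028, covering 9869 of 14283 bp, with 1242 tags. Single peaks held 30 to 378 tags, with implied inputs of 27.8 to 46.1 and folds of 10 to 40.7. The longest peak of the set, 2531 bp (3194472 to 3197002), lies here, held 378 tags and also covers the pseudogene Fau-ps2. The lowest fold of the set, 10, belongs to the peak from 3191047 to 3191701, which had 30 tags and a height of 6 at an implied input of 35.9. These peaks were 536 to 2531 bp long, and their tag densities ran from 0.0458 to 0.154 tags per bp. Another 8 shorter peaks within 10 kb held 187 tags with implied inputs of 10.1 to 36.9. These 9 peaks are every long peak on the satellite-flanking gene list (1.88%, background 0.0252%), of which only 2 genes were matched on these chromosomes, and the list was chosen with Sfi1 in view.

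**Figure D3:**
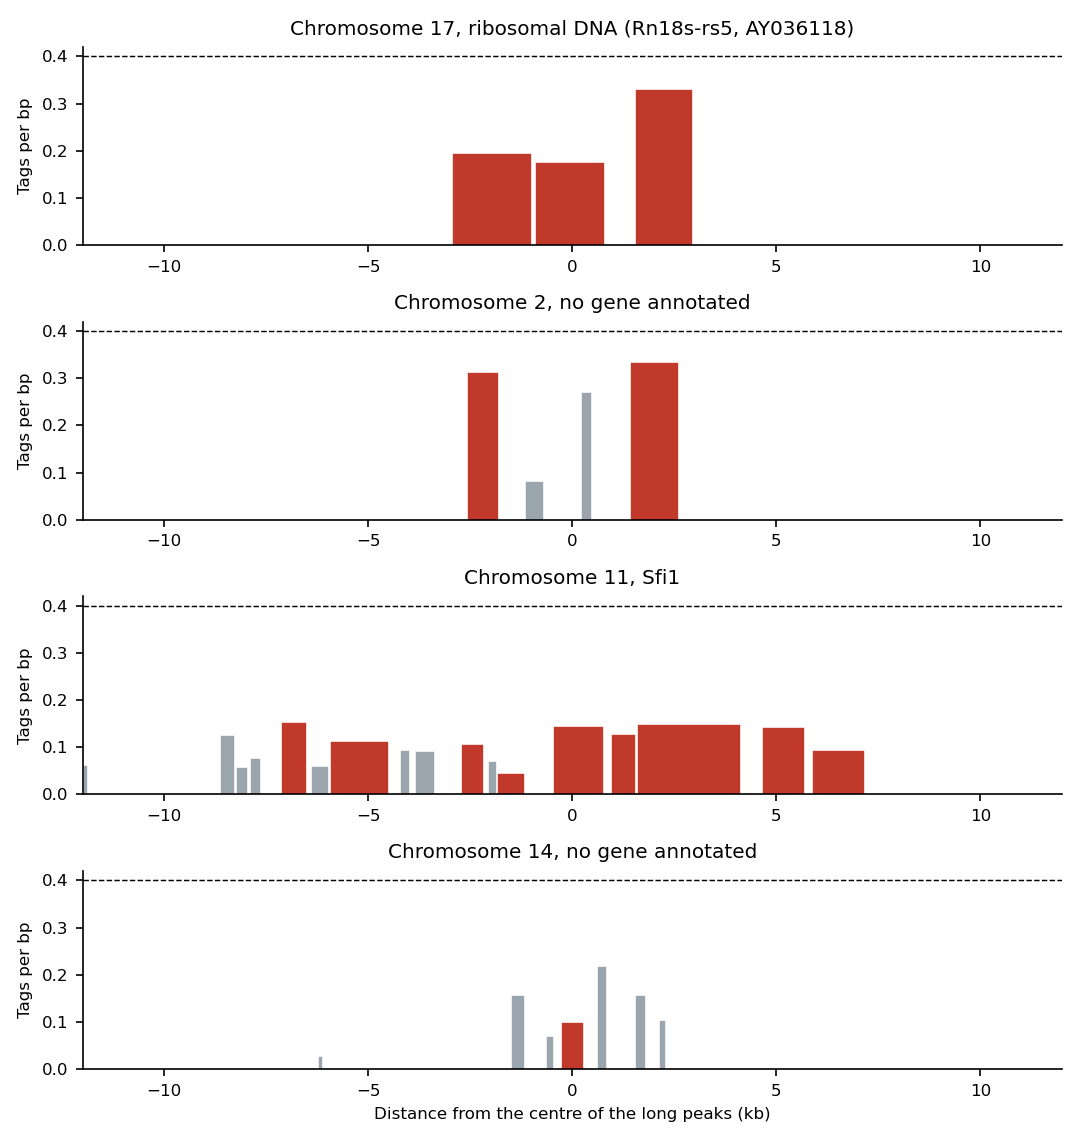
Tags per bp of each peak (bar height) against the distance in kb from the centre of the long peaks, for 4 loci of high implied input, with long peaks in red, shorter peaks in grey and the bound of 0.400 tags per bp dashed. The ribosomal DNA shows only long peaks, the Sfi1 row has 9 long peaks among shorter ones, and the chromosome 14 locus is mostly cut into short peaks.

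The other loci at 20 or more were single long peaks. A peak of 1612 bp on chromosome 15 (75085469 to 75087080), 10449 bp from the pseudogene Gm5960, held 405 tags with a fold of 29.32 and an implied input of 44.9. A peak inside Aida, which encodes an axin interactor, lay at 183299098 to 183299603 of chromosome 1 and held 83 tags at a height of 22, with a fold of 23.38 and an implied input of 56.3. It was only just past the length limit, at 506 bp. On chromosome 10, a peak inside E030030I06Rik (22142372 to 22143051) held 93 tags with a fold of 52.48 and an implied input of 21.7. On chromosome 3, the peak from 8245803 to 8246430, 29422 bp from the pseudogene Gm7103, held 55 tags with a fold of 23.69 and an implied input of 25.3. On chromosome 14, the peak from 19416895 to 19417428 held 53 tags with a fold of 34.36 and an implied input of 29.6, and 6 shorter peaks around it held 159 tags with implied inputs up to 59.6.

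The length limit did not capture every place of this kind. Of 62 peaks of the area at an implied input of 20 or more, 43 were 500 bp or shorter, and they fell in 18 places. The first part of chromosome 9 with peaks, from 2999997 to 3038055, held 15 of them with 336 tags and none over 311 bp. The highest implied input of the area, 74.8, belongs to a shorter peak on chromosome 9 (35305194 to 35305580) that held 120 tags. Of the 18 places, 3 (Sfi1 and the loci of chromosomes 2 and 14) also held a long peak. The count of long peaks at chromosome starts depended on where the start was set. Of 480, 1 lay within 1 Mb of the first gene or peak of its chromosome (0.208%, background 0.317%), and 21 within 5 Mb (4.38%, background 2.38%). Counted from the first peak alone, because the gene table places some genes before any peak, there were 15 within 1 Mb (3.12%, background 0.964%). The 9 peaks of Sfi1 are among both the 21 and the 15.

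Between these loci and the rest stood a group with implied inputs near 10. Around Mroh2a and Hjurp on chromosome 1, the latter encoding the chaperone of the centromeric histone, 8 long peaks lay between 88231497 and 88296903. They held 465 tags in all, with 26 to 108 each, implied inputs of 6.56 to 10.4 and folds of 32.2 to 201. The peak inside Hjurp (88267547 to 88268302) held 89 tags with a fold of 103.36, and the peak with the highest fold of the group, 200.75, lay 9832 bp from Trpm8 and also held 89. Within this group of similar input, tags and folds differed several times over. On chromosome 15, 2 long peaks between 61484048 and 61508402, the first 126044 bp from its nearest gene Gm24696, held 109 and 120 tags with folds of 115.16 and 108.72 and implied inputs of 10.4 and 11. Here 15 shorter peaks within 10 kb had implied inputs of 9.46 to 11.4, so the raised input extended well beyond their intervals and was not a property of the long peaks alone. A peak of chromosome 8 (123426473 to 123427051), 4458 bp from Tubb3, a neuronal tubulin gene, held 113 tags at a height of 22 with a fold of 130.79 and an implied input of 10.1.

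Joined over gaps of up to 50 kb, 50 of 480 long peaks (10.4%) fell into 17 runs, and 430 stood alone. No such share was computed for an equal number of other peaks, so it cannot be called high or low. The 5 runs with the most tags were those of Sfi1, the ribosomal DNA, the chromosome 2 locus, Mroh2a and Hjurp, and the chromosome 15 region. Within 100 kb of a long peak there were 9 other peaks in the median (range 0 to 69), and within 100 kb of a shorter one 7.

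Chromosome 15 held 89 of the 480 long peaks (18.5%), the most of any chromosome. They made up 1.4% of its peaks, followed by 0.957% on chromosome 11 and 0.806% on chromosome 17, and the lowest share was 0.206% on chromosome 6, with 7 long peaks. Their median implied input was 3.42, and 73 of the 89 stood at 2 or more. All peaks of chromosome 15 together had a median of 2.37, the highest of the 19 chromosomes. On chromosome 9, 23 of 35 long peaks stood at 2 or more with a median of 2.40, and all its peaks had a median of 1.73. At 2 or more stood 65.8% of all peaks of chromosome 15 and 37.1% of those of chromosome 9, against 82.0% and 65.7% of their long peaks. Chromosomes 2, 1 and 11 held 11, 10 and 10 long peaks at 2 or more. Median tags per long peak were similar, at 54 on chromosome 15, 52 on chromosome 9 and 41 on chromosome 2. On chromosome 15 a raised input thus stood beside a raised share of long peaks. Chromosome 9 had the next highest median of all peaks, but its long share was 0.637%, as in the whole area. Chromosomes 11 and 17 had larger shares at medians of 1.24 and 1.30 over all their peaks. Their long peaks include loci of high implied input: Sfi1 holds 9 of 34 on chromosome 11, and the ribosomal DNA 3 of 22 on chromosome 17. On chromosome 15, 54 of the 89 long peaks lay from 50 to 80 Mb, and on chromosome 9, 22 of 35 lay before 40 Mb. The part of the input in the number of long peaks was not tested.

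**Figure D4:**
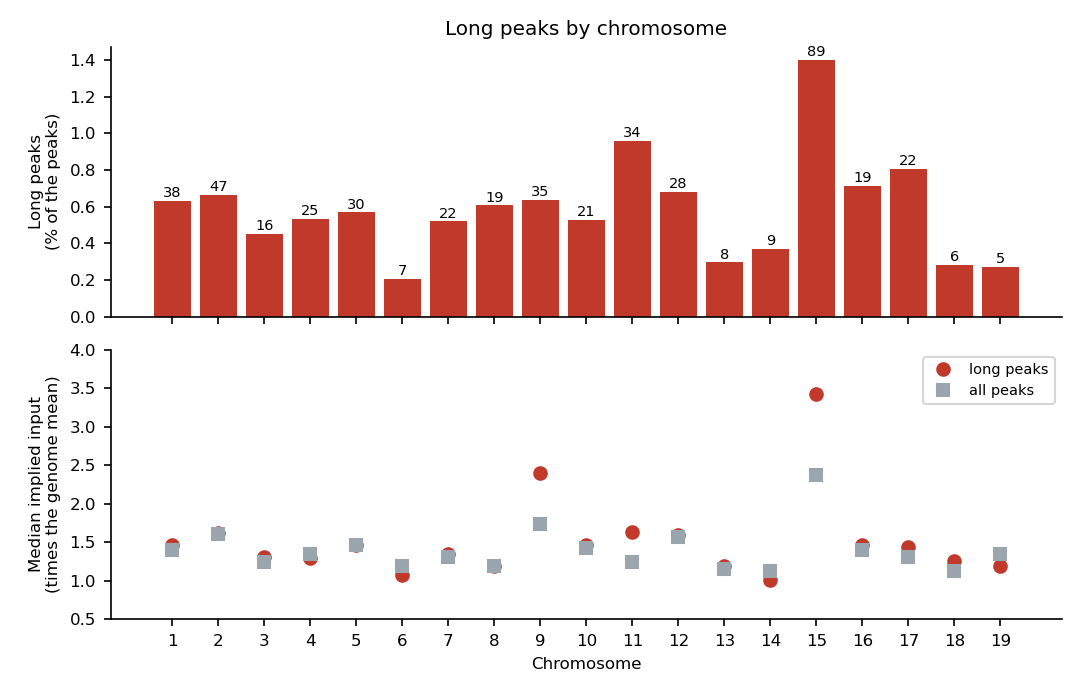
Top, long peaks as a percentage of the peaks of each chromosome (the number of long peaks stands above each bar); bottom, median implied input of the long peaks (red circles) and of all peaks (grey squares) in multiples of the genome mean. Chromosome 15 has the highest bar (1.4%, 89 long peaks) and the highest medians (3.42 and 2.37).

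The long peaks with the most tags outside the loci of high input had folds above the median of the set (451) and implied inputs of 1.00 to 2.32. A peak inside Clcn7, which encodes a lysosomal chloride transporter, lay at 25147472 to 25148053 of chromosome 17 and held 149 tags with a fold of 958.35 and an implied input of 1.31. A peak on chromosome 12 (105244798 to 105245504), 22061 bp from Tcl1, held 143 tags with a fold of 568.69 and an implied input of 2.10. A peak inside Col9a3, which encodes a cartilage collagen chain, held 141 tags with a fold of 567.37 and an implied input of 2.32. A peak on chromosome 14 (8901319 to 8901955), 23516 bp from the pseudogene Gm18071, held 137 tags with a fold of 1256.79 at the genome mean. A peak inside Aim2, a sensor of cytosolic DNA, held 134 tags with a fold of 1088.22 and an implied input of 1.15. The trait ends with this cut. The next peak by tags, 7059 bp from Anxa13 on chromosome 15, held 133 with a fold of 319.04 and an implied input of 4.13. Clcn7 and the ribosomal peak with 298 tags thus had like heights (21 and 20), and their folds of 958.35 and 18.30 differ through the input.

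The highest folds all belonged to peaks near the genome mean with heights of 19 to 22. The top value, 1316.63, is the highest fold the height limit allows and belongs to a peak on chromosome 6 (79788120 to 79788677, 102 tags), 29354 bp from Gm20594. It was followed by 1262.54 inside Il12rb1, an interleukin receptor subunit gene (107 tags), and by 1256.79 both inside Tnni3k, a heart-muscle kinase gene (86 tags), and at the chromosome 14 peak near Gm18071 (137 tags). Next came 1196.94 on chromosome 17, 200151 bp from Gm6771 (93 tags), and 1155.16 on chromosome 6, 36439 bp from the ubiquitin ligase gene Znrf2 (72 tags). Folds of 1137.09 inside Gse1 and Gm32968 (83 tags), 1134.74 at 1823 bp from the sialyltransferase gene St8sia5 (112 tags), 1114.01 inside Ttc6 (104 tags) and 1094.03 inside Sugp2 (99 tags) completed the 10 highest. None of these had an implied input above 1.20. The lowest tag counts of the set were 15 inside Daam1, 16 inside Gm39006 and 17 near Chrna7, with folds of 107.32, 144.02 and 210.23.

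Their places relative to genes were close to those of all peaks. A summit within 1 kb of a gene end was found in 30 long peaks (6.25%, background 7.91%), inside a protein-coding gene in 211 (44.0%, background 44.3%), inside another annotated gene in 28 (5.83%, background 6.99%) and outside annotated genes in 211 (44.0%, background 40.8%). Inside any annotated gene lay 262 (54.6%, background 56.4%). Median fold was 334 near gene ends, 465 inside protein-coding genes, 483 inside other genes and 454 outside. Median implied input ranged only from 1.5 to 1.67 over these classes.

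**Figure D5:**
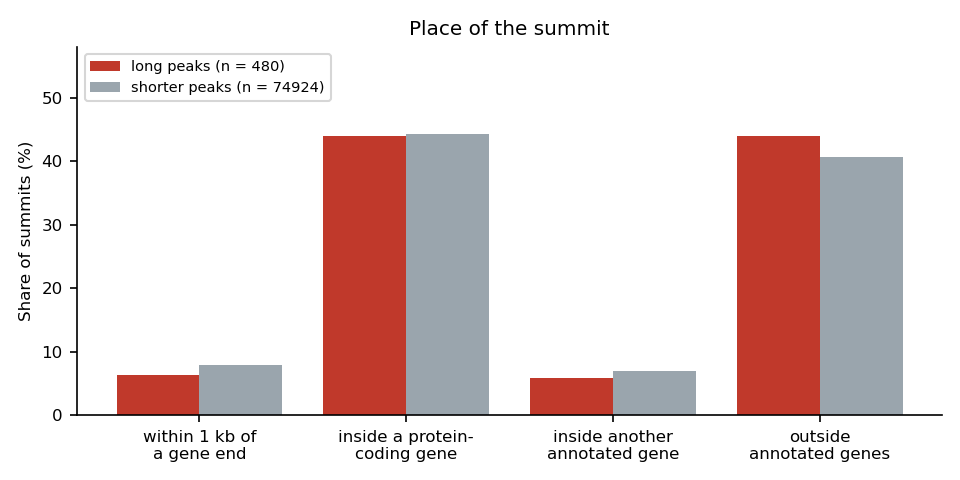
Share of summits in percent in each of 4 gene classes, for the 480 long peaks (red) and the 74924 shorter peaks (grey). The bars of the 2 sets are close in every class, with 6.25% against 7.92% near gene ends and 44.0% against 40.7% outside genes.

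Within 1 kb of the ends of protein-coding and long noncoding RNA genes lay 25 of the long peaks (5.21%, background 6.35%), and apart from the ribosomal peak at AY036118 their tag counts were moderate. The next was a peak 830 bp from an end of Rcbtb2 with 108 tags and a fold of 924.13. A peak over Dxo, which encodes a decapping nuclease, and Skiv2l, which encodes a helicase of RNA decay, held 80 tags with a fold of 654.89. The others among the 10 with the most tags were at Tatdn1 and Gm36559 (68 tags), Matn2 and 9430069I07Rik (65), 1700012D14Rik (62), Gm10615 near Dhx30 (56), Dpp7 (55), Baiap2l2 (55) and Gm29936 (53). Their folds ran from 80.26 at Tatdn1 to 657.16 at 1700012D14Rik. The low fold at Tatdn1 stood beside an implied input of 7.46, and those at Matn2 (290.87) and Baiap2l2 (187.71) beside 3.29 and 4.14; these 3 lie on chromosome 15.

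Beyond ribosomal DNA and Sfi1, few long peaks lay over genes known in many copies, and the same held for all peaks of the area. Of the small nuclear and other small RNA list, 1 long peak lay over a member, Gm10615 (0.208%, background 0.111%). No long peak lay over a transfer RNA gene (background 0.00663%), a microRNA gene (background 0.0305%) or 1 of 2 nuclear pseudogenes of mitochondrial genes (background 0%). The tandem gene families had 1, at Naip3, with 24 tags (0.208%, background 0.487%). Predicted genes with Gm symbols had 38 (7.92%, background 8.87%) and annotated pseudogenes 7 (1.46%, background 1.02%). All these shares count intervals and are not corrected for peak length. The 7 comprise 2 at Rn18s-rs5 and 1 each at Fau-ps2, Gm8809, Gm9191, Gm12538 and Naip3. Gm12538 held 123 tags with a fold of 1033.77 and an implied input of 1.27, so being annotated as a pseudogene did not go with a raised input there. No interspersed repeat or satellite annotation was used here, so repeats outside these gene lists were not counted.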

How the data were processed

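Per the file headers, the authors called 1 peak list with MACS 1.4.4 at a p cutoff of 1e-05, with tags of 25 bp, fragments of 53 bp and an effective genome size of 2.7 Gb. The submitters' processing notes name the build as mm10 (GRCm38). The sources used here give no aligner. The deposited values are each peak's tag count, fold enrichment (a ratio), score (10 times the negative log10 of p), summit height (a signal) and false discovery rate in percent, and they serve only to describe and rank peaks. The treatment held 851227 tags after duplicate removal, and intervals cover counting error only. With 1 library a group no test was possible. Members and gene lists were chosen with earlier results of these data known. The rule is a length over 500 bp. Implied input, tag density, edge remainders and overlaps were computed in Python 3.11.15 with pandas 2.3.3 and tested on simulated data. Genes (47038) came from RefSeq GRCm38.p6, which gives no exons here. Named peaks are the 15 with most tags, the 10 with highest implied input, fold and length, those over ribosomal, mitochondrial-like or satellite-flanking genes, the 10 with most tags within 1 kb of a protein-coding or long noncoding gene end, and the 5 runs with most tags. The peaks with the fewest tags, those at promoter windows, Gm12538, Naip3 and those near chromosome 3, 8, 10 and 14 loci were named after their values were seen.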

Additional observations from a re-analysis of the deposited data

Results flagged for a closer look

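Outside chromosomes 1 to 19, 14 further peaks were over 500 bp, in sequence that the results above do not use. The longest of 4 on the mitochondrial genome, from 10970 to 15728, held 1534 tags, more than any of the 480 long peaks described above (466 at most), with a fold of 15.23 and an implied input of 86.5. The other 3 held 586, 1081 and 170 tags with implied inputs of 100, 83.4 and 42.6. On the unplaced sequence 7 held 55 to 244 tags with implied inputs of 18.1 to 37.7, near those of Sfi1. The pair on Y held 45 and 42 tags at 14.7 and 16.7. The single one on X held 54 tags with a fold of 778.01 at the genome mean. No control pull-down was compared at these places.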

How the results depend on the processing

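No paired analysis was possible because the result comes from no test, and with 1 library a group no replicate could be left out. Of 41 alternatives, 15 moved a value by less than its interval or by under 1.5 times for counts, and 26 by more, and the cause was not tested. The 480 long peaks became 1887 over 400 bp, 103 over 600 bp and 10 over 1000 bp, and 1017 with the chromosome 11 block kept in. In the same order, the share at an implied input of 2 or more (29.8%) became 21.9%, 42.7%, 100% and 66.9%, and the share at 10 or more (5.21%) became 1.64%, 19.4%, 100% and 55.3%. The former was 11.7% without chromosomes 15, 9 and 2, and 18.5% with a smaller effective genome size. The background of 13.8% was not recomputed for either setting, so neither value can be set against it. The share near gene ends (6.25%) was 26.7% with a window of 5 kb and 20% over 1000 bp, where 60% lay inside genes and 7 (in place of 11) over ribosomal or satellite-flanking genes. The share in runs (10.4%) was 4.38% with joining at 10 kb and 23.1% at 200 kb. The count near chromosome starts (1) was 2 within 2 Mb and 21 within 5 Mb. From the first peak, a choice made after seeing the data, it was 15 within 1 Mb and 29 within 5 Mb. The share on chromosome 15 (18.5%) was 13.4% over 400 bp and 10% over 1000 bp. Summit heights stop at 22 tags, which sets a highest possible fold at each implied input.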
